A study of Mus musculus with 4 samples.

Results

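The nuclear genes for the oxidative phosphorylation machinery were followed by RNA-seq in mouse melanocyte stem cells, which renew the pigment cells of hair and were sorted here from skin. The genes were chosen by name: every gene whose symbol begins with Nduf, Uqcr, Cox4i, Cox5, Cox6, Cox7, Cox8 or Atp5, leaving out symbols containing -ps, of which there were 0. This gave 88 of the 27933 genes in the files, of which 45 belong by name to complex I, 8 to complex III, 18 to complex IV and 17 to complex V. The control group was 2 libraries from mice given saline, and the stressed group was 2 libraries from mice given RTX, a compound the labels name by this abbreviation only. All cells were taken 12 h after injection. The general treatment label mentions RTX for every sample, whereas the sample-level treatment label gives saline for the controls, and the groups follow the latter. Strain, age and genotype are not given in the sources used here, and neither is whether the libraries of a group came from separate animals, so the errors cover the differences among these 4 libraries and may be partly technical.

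Oxidative phosphorylation takes place on the inner mitochondrial membrane. Complex I takes electrons from NADH and complex II takes them from succinate. Ubiquinone carries them to complex III, cytochrome c carries them on to complex IV, and complex IV passes them to oxygen, while complexes I, III and IV pump protons out of the matrix. Complex V, the ATP synthase, lets the protons flow back and makes ATP. Complex II is encoded wholly in the nucleus, but complexes I, III, IV and V each combine nuclear-encoded subunits with a few made from mitochondrial DNA. Pigment cells run this machinery beside melanin synthesis, and the coactivator Ppargc1a, known for driving the nuclear genes of respiration, also acts in the melanocyte lineage.

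The promoters of these genes are known for binding sites of nuclear respiratory factor 1 (NRF1) and of YY1, so their letters were searched on both strands from 250 bases before to 50 after the start, in RefSeq windows of build GRCm38.p6. Of the 88 genes, 70 had a window by symbol and 73 by symbol or synonym, in 79 windows. The NRF1 letters GCGCATGC stood in 13.9% of these windows, beside 5.05% of the windows of all tested genes and 2.71% of all windows. They stood in 11 of the 73 genes, 5 of complex I, 2 of complex III, 1 of complex IV and 3 of complex V. The run GCATGC within these letters equals its own reverse complement, so a match on one strand can overlap a match on the other. The stretches below are each 28 bases long and read 5′ to 3′ on the gene's strand. They show the NRF1 letters in 6 of these genes. Some windows, and matches too near a window's edge, were left out before the 6 were chosen. The 6 had the most reads among the genes that remained, by mean CPM not divided by length. Genes that hold the letters and have more reads may therefore be missing. Capitals mark the match, or overlapping matches on the opposite strands.

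Uqcrc1, chr9:108936668-108936695, plus strand: actccgctctGCGCATGCGCagcgcggc

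Cox6a1, chr5:115349103-115349130, minus strand: caggaacgggGCGCATGCGCgctctcgc

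Uqcr11, chr10:80406808-80406835, minus strand: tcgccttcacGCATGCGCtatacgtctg

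Ndufa8, chr2:36049329-36049356, minus strand: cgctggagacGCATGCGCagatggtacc

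Ndufa11, chr17:56717692-56717719, plus strand: cctgcactgcGCGCATGCGCgcacgcct

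Ndufa6, chr15:82354357-82354384, minus strand: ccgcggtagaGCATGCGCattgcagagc

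The YY1 letters AAGATGGC stood in 15.2% of the members' windows, beside 4.16% of the windows of tested genes and 2.75% of all windows. They stood in 11 genes, 7 of complex I and 4 of complex V, and in 0 genes of complexes III and IV, for which 5 and 13 genes had a window. Their place differed from that of the NRF1 letters. Of 12 YY1 matches, 9 began at or after the start of the transcript, whereas 14 of 19 NRF1 matches began before it. The YY1 letters contain ATG, so a match after the start can also cover a start codon. The stretches show the YY1 letters, or their reverse complement, in capitals in 6 genes that hold them. These had the most reads, again by mean CPM, after the same exclusions as for the NRF1 letters.

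Atp5f1, chr3:105959249-105959276, minus strand: tgtgcgagcgGCCATCTTgctcctgccc

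Ndufs7, chr10:80249463-80249490, plus strand: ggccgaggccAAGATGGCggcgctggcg

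Atp5j, chr16:84835047-84835074, minus strand: aagtgtaggaAAGATGGCggagtcttag

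Atp5j2, chr5:145191501-145191528, minus strand: ccaggacttcAAGATGGCgtcactcggt

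Ndufa9, chr6:126849098-126849125, minus strand: attgtgggagAAGATGGCggccgccgtc

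Ndufa3, chr7:3617385-3617412, plus strand: cgccaagaacAAGATGGCcgggagtaag

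The ETS letters CCGGAAGT, bound by GABPA among others, stood in 6.33% of the members' windows and in 7.64% of the windows of tested genes. The letters TCAAGGTCA of the estrogen-related receptor alpha stood in 1.27% and 0.264%, which is 1 gene of the 73. A match is a run of letters and was not measured as a binding site. The members also stood often beside a gene read in the opposite direction: 22 of the 82 tested members (26.8%) had such a neighbour starting within 1000 bases, beside 13.4% of all tested genes.

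Total counts per library were 9273652 and 11854280 in controls 1 and 2 and 10625688 and 11104039 in stressed 1 and 2. Levels are given as CPM, library-size scaled counts (TMM). Levels of different genes are compared only after dividing by exon length, as CPM per kb. That length counts all annotated exons of a gene, so orders of genes by CPM per kb depend in part on the annotation. Melanocyte marker genes, 12 in number, summed to 24697 to 25501 CPM in the controls and to 45147 to 47088 CPM in the stressed libraries. The 15 keratinocyte markers summed to 29420 and 18069 CPM in controls 1 and 2 and to 11899 and 10463 CPM in the stressed libraries. Schwann and glial markers summed to between 816 and 1143 CPM, fibroblast, immune and muscle markers to at most 52.9 CPM, and endothelial, adipocyte and red blood cell markers to at most 3.57 CPM in any library. In bulk libraries like these, fewer cells of a type and less RNA per cell cannot be told apart.

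The nuclear respiratory genes as a whole did not separate the control from the stressed cells. Their summed level was 10250 and 8188 CPM in controls 1 and 2 and 9125 and 9413 CPM in stressed 1 and 2, so both stressed libraries lay between the controls. No test of the sum can be called here, since an exact permutation test of 2 libraries against 2 cannot go below a p of 0.333. Each complex showed the same arrangement. Complex I summed to 3367 and 2766 CPM in the controls and to 2958 and 2971 CPM in the stressed libraries. Complex III summed to 1083 and 880 CPM against 935 and 1021 CPM, complex IV to 1405 and 1125 CPM against 1257 and 1280 CPM, and complex V to 4395 and 3416 CPM against 3975 and 4140 CPM. The groups overlapped in all 4 sums.

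Of the 88 genes, 82 had enough counts to be tested, including every member of complexes I, III and V. By edgeR's quasi-likelihood test, 0 of the 82 passed an adjusted p of 0.05, and the smallest adjusted p was 0.389. The background was also empty, since 0 of 13348 tested genes passed (0.0%), with a smallest adjusted p of 0.115. DESeq2's Wald test called 587 of the 13348 genes (4.4%) and 0 of the 82 members, whose smallest adjusted p was 0.382. At an unadjusted edgeR p under 0.05 stood 1 member, Ndufa4l2, beside 1705 genes in all (12.8%). The fitted log2 difference, stressed minus control, was above 0 in 34 members and below 0 in 48, with a median of -0.05 beside -0.01 over all tested genes, and a range from -0.88 to 0.42.

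How large a difference the 4 libraries could have hidden is given by the 95% intervals. The interval lay within a 2-fold change either way for 72 of the 82 members. The 10 others were Ndufa4l2, Ndufaf3, Ndufc1, Ndufaf5, Ndufb4, Ndufaf6, Ndufaf1, Cox6b2, Atp5s and Atp5l, and the widest bounds over all members were -1.76 for Ndufa4l2 and 1.47 for Atp5l. Smaller changes could not be told from 0, and the test does not show that levels were equal.

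**Figure D1:**
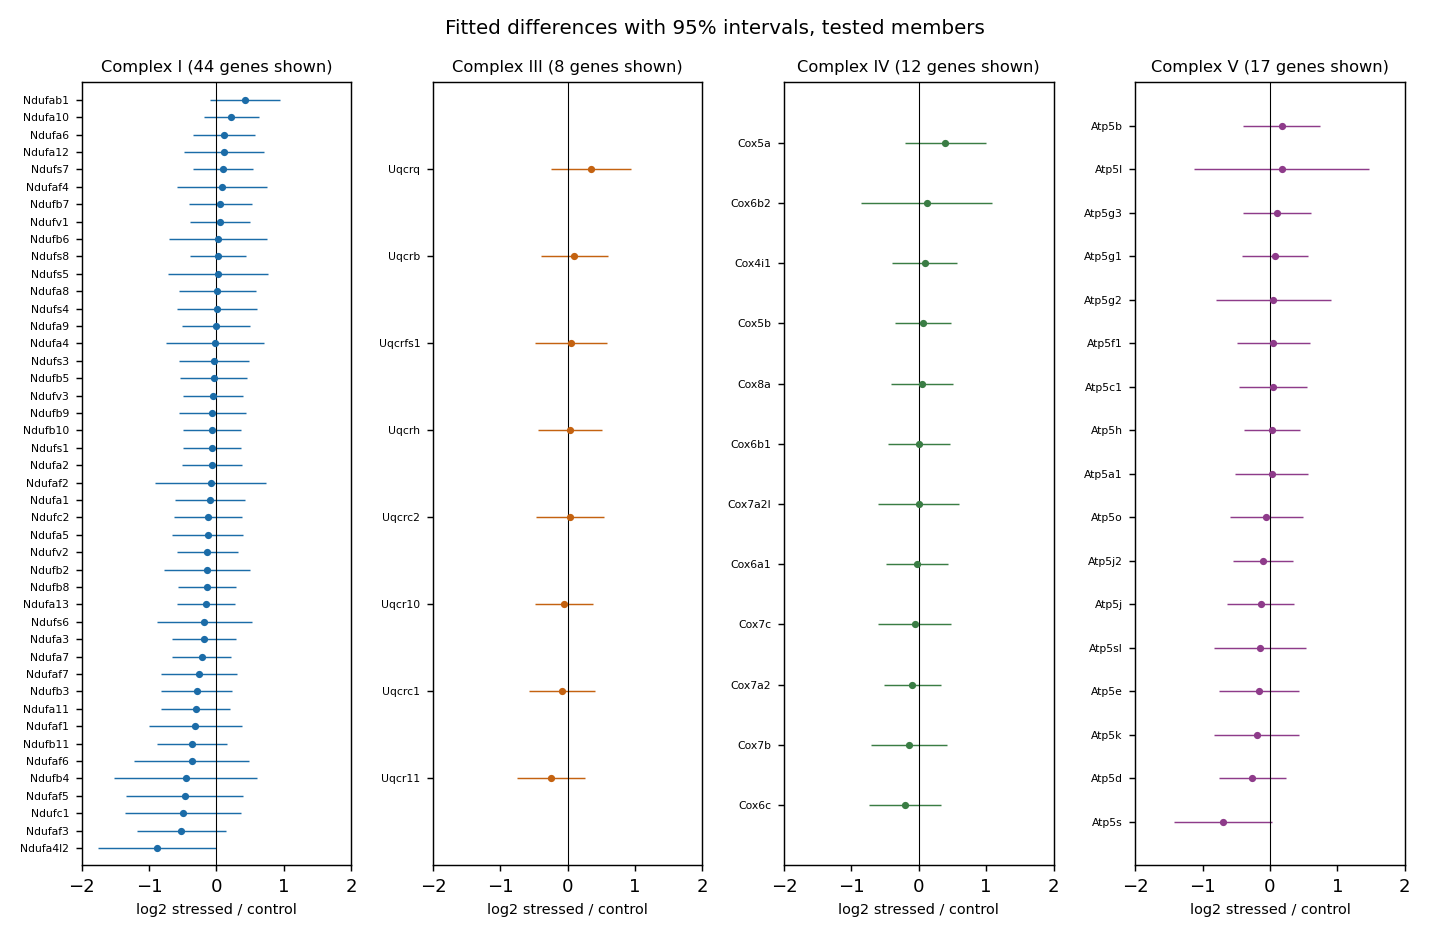
Fitted log2 difference, stressed minus control, for the tested genes by complex, with 1 of complex I not drawn; points are edgeR estimates, bars are 95% intervals and the vertical line marks no difference. All bars cross 0 except that of Ndufa4l2, which ends just below it.

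The libraries of a group differed more in the controls than in the stressed group. Control 1 stood above control 2 in 74 of the 82 members (90.2%), whereas it did so in 49.7% of all tested genes. The median log2 ratio of control 1 to control 2 was 0.33 over the members and 0.00 over all tested genes. Stressed 1 stood above stressed 2 in 40 of the 82, with a median log2 ratio of -0.02. Both stressed values lay between the control values in 36 of the 82 members (43.9%), beside 18.9% of all tested genes. The difference between the controls ran through every complex, with control 1 the higher in 38 of 45 complex I genes, 8 of 8 in complex III, 12 of 12 in complex IV and 16 of 17 in complex V. Control 1 was also the library with the highest keratinocyte sum, 29420 CPM, and that sum's part in the difference was not tested.

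**Figure D2:**
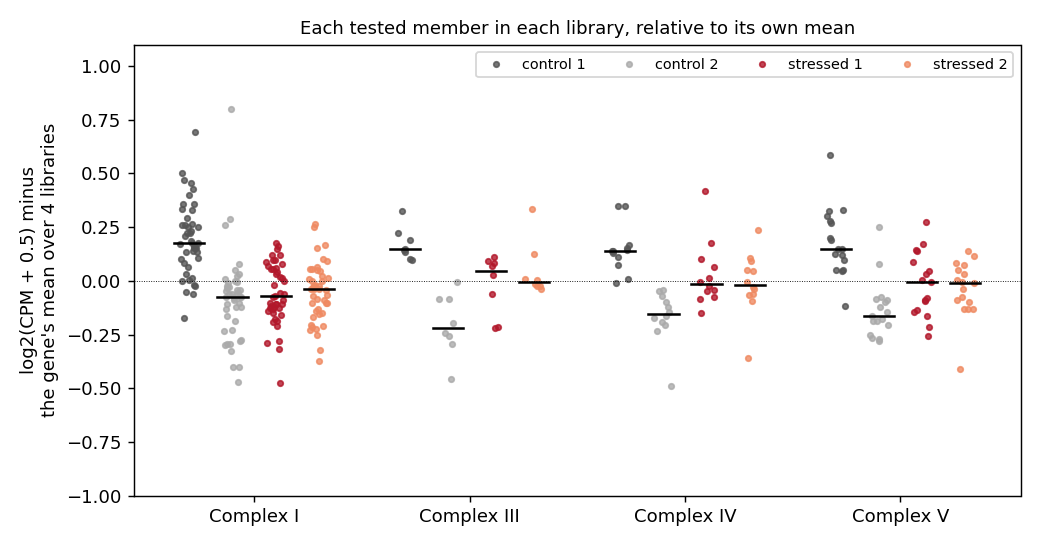
Level of the tested genes, with 1 of complex I not drawn, in each library as log2(CPM + 0.5) minus the gene's own mean over the 4 libraries, by complex; each dot is a gene and each black bar the median. The medians of control 1 lie above 0 in all 4 complexes and those of control 2 below 0, with the medians of the stressed libraries between them or close to control 2.

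The direction of the members' median rested on which control was used. Without control 1 the median log2 difference was 0.10 and 58 members were higher in the stressed libraries. Without control 2 it was -0.18 and 70 members were lower. Under both settings 0 members passed the adjusted threshold.

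In complex I, 14 members had a fitted difference above 0 and 31 below, with a median of -0.07. The 7 core subunits, which carry the flavin and the iron-sulfur clusters that pass electrons to ubiquinone, were split 4 above and 3 below, with a median of 0.02. Ndufv1, the flavoprotein where NADH is oxidised, stood at 177 and 184 CPM with saline and at 170 and 204 CPM with RTX. Its groups overlapped, and its log2 difference was 0.05 (95% interval -0.40 to 0.50). Ndufs1, the largest of the iron-sulfur subunits, stood at 181 and 156 CPM and at 162 and 160 CPM (log2 -0.07, -0.50 to 0.37). Both stressed libraries of Ndufs1 lay between the controls. Ndufs8, which holds iron-sulfur clusters near the ubiquinone site, stood at 109 and 95.7 CPM and at 104 CPM in each stressed library (log2 0.02, -0.40 to 0.44).

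The 29 accessory subunits of complex I, which surround the core and are needed for its assembly and stability, had a median of -0.07, with 9 above 0 and 20 below. The highest difference of any member was that of Ndufab1, the mitochondrial acyl carrier protein, which also serves lipoic acid synthesis. Ndufab1 stood at 51.0 and 39.1 CPM with saline and at 58.0 and 62.3 CPM with RTX. Both stressed libraries were the higher, with a log2 difference of 0.42 (SE 0.22, 95% interval -0.10 to 0.94), which did not pass the test. Ndufa10, an accessory subunit of the matrix side, stood at 149 and 138 CPM and at 169 and 166 CPM (log2 0.22, SE 0.17, -0.19 to 0.63). Its groups also did not overlap. Ndufb9, of the membrane arm, had the highest level per length in complex I, 199 CPM per kb, and stood at 151 and 113 CPM and at 134 and 120 CPM. Ndufc1, another small subunit, stood at 47.5 CPM in control 1 and at 24.0 CPM in control 2, beside 23.9 and 26.6 CPM in the stressed libraries. Its fitted log2 difference of -0.50 (-1.36 to 0.37) came from control 1 alone, since control 2 lay beside the stressed libraries.

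The 7 assembly factors whose symbols begin with Ndufaf, which build complex I without staying in it, were lower in 6 of 7 fitted differences, with a median of -0.31. Their summed level was 179 and 145 CPM in the controls and 134 and 139 CPM in the stressed libraries, so the groups did not overlap. Ndufaf3 stood at 34.5 and 25.2 CPM and at 20.2 and 21.4 CPM (log2 -0.52, SE 0.27, -1.18 to 0.14). Ndufaf5, which modifies a core subunit, stood at 9.53 and 10.1 CPM and at 7.23 and 6.91 CPM (log2 -0.47, -1.34 to 0.40). In both genes each stressed library lay below each control. The same held for Ndufaf6 and Ndufaf7, with log2 differences of -0.37 and -0.26. Of all tested genes, 22.9% had each stressed library below each control. Ndufaf4 was the exception, at 35.1 and 26.9 CPM and at 27.8 and 37.6 CPM. None of the 7 passed the test, and without control 1 their median was -0.08, still with 6 of 7 below 0. Without stressed 1 it was -0.27, with 5 of 7 below 0. Without control 2 it was -0.42 and without stressed 2 it was -0.24, with 7 below 0 in each. The 7 tested complex I assembly factors outside the name rule had a median of -0.02, with 3 above 0 and 4 below.

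Ndufa4 and its paralog Ndufa4l2 were grouped apart from the core, accessory and assembly genes of complex I. Ndufa4 was named for complex I but is found in complex IV, and it stood at 157 and 83.8 CPM with saline and at 116 and 120 CPM with RTX (log2 -0.02, -0.75 to 0.70). Ndufa4l2, known as a target of hypoxia-inducible factor that dampens respiration, stood at 14.7 and 25.9 CPM with saline and at 10.4 and 11.6 CPM with RTX. It was the lower in both stressed libraries, and unlike most members it was higher in control 2 than in control 1. Its log2 difference of -0.88 (SE 0.36) had an unadjusted p of 0.0491 and an adjusted p of 0.389 by edgeR. The difference was -1.22 without control 1 and -0.41 without control 2.

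In complex III, 5 members had a fitted difference above 0 and 3 below, with a median of 0.04. Uqcrc1, a core protein that faces the matrix, stood at 381 and 354 CPM with saline and at 306 and 388 CPM with RTX (log2 -0.08, -0.58 to 0.41). The stressed libraries stood on either side of the controls. Uqcrfs1, the Rieske iron-sulfur protein that hands electrons on toward cytochrome c, stood at 105 and 73.4 CPM and at 95.9 and 88.6 CPM (log2 0.05, -0.48 to 0.58). The small subunit Uqcrq had the highest difference of the complex, at 85.1 and 57.7 CPM and at 81.1 and 100.2 CPM (log2 0.35, -0.24 to 0.94). Uqcr11, also small, had the lowest, at 96.5 and 72.6 CPM and at 66.4 and 75.7 CPM (log2 -0.25, -0.76 to 0.26). In all 4 of these genes the groups overlapped. Uqcrb, which sits beside cytochrome b, stood at 92.7 and 69.9 CPM and at 90.4 and 83.8 CPM (log2 0.10, -0.39 to 0.59), and 43.4% of its 50-base words occur in transcripts of other genes. The small subunits Uqcr10 and Uqcr11 had the highest levels per length of the complex, 136 and 121 CPM per kb. This order depends in part on the annotated exon lengths, 584 and 641 bases beside 4135 for Uqcrc1.

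In complex IV the isoforms split cleanly by level. The 10 widely expressed subunits were all tested, and 5 were above 0 and 5 below, with a median of -0.01. Cox4i1, the isoform of subunit 4 found in most tissues, stood at 283 and 227 CPM with saline and at 280 and 260 CPM with RTX (log2 0.09, -0.39 to 0.56). Cox6a1 stood at 235 and 195 CPM and at 202 and 220 CPM, and Cox8a at 164 and 132 CPM and at 152 and 155 CPM. In all 3 genes the stressed libraries lay between the controls. Cox6a1, Cox8a and Cox6b1 had the highest levels per length of the complex, at 304, 276 and 226 CPM per kb.

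The tissue-restricted isoforms of complex IV were near or at 0 apart from Cox6b2. Cox4i2 (known from lung), Cox6a2 and Cox8b (known from heart and skeletal muscle) and Cox7b2 had 0 counts in all 4 libraries. A count of 0 allows up to 3 counts, which is between 0.254 and 0.321 CPM in a library and covers counting error only. Cox7a1, the heart and muscle isoform, was between 0.0847 and 0.429 CPM, and Cox8c had 2 counts in control 1 and 0 elsewhere. Cox6b2, known from testis, stood at 9.75 and 9.49 CPM with saline and at 13.3 and 7.55 CPM with RTX (log2 0.12, -0.86 to 1.09), and its level per length was 9.05 CPM per kb beside 226 for Cox6b1.

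Cox5a, a subunit on the matrix side known to bind a thyroid hormone metabolite, was the only complex IV member with separate groups. It stood at 49.4 and 33.3 CPM with saline and at 53.0 and 55.4 CPM with RTX (log2 0.39, -0.21 to 0.99). Its counts are uncertain, since 38.7% of its exon bases overlap the gene Gm26631 and 32.0% of its 50-base words occur in transcripts of other genes. Cox6c had the lowest difference of the complex, at 118 and 82.3 CPM and at 83.0 and 89.8 CPM (log2 -0.21, -0.74 to 0.32). Cox7a2, the counterpart of Cox7a1 in most tissues, stood at 110 and 96.8 CPM and at 99.5 and 93.7 CPM (log2 -0.10, -0.52 to 0.32). Cox7b, on the X chromosome, stood at 106 and 71.0 CPM and at 81.0 and 79.9 CPM. In Cox6c and Cox7b control 1 was the library that stood apart. Cox7a2l, a factor that joins complexes III and IV into supercomplexes, stood at 34.0 and 26.7 CPM and at 31.5 and 28.9 CPM (log2 0.00, -0.60 to 0.60).

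In complex V, 9 members had a fitted difference above 0 and 8 below, with a median of 0.02. The catalytic head is built from the alpha subunit Atp5a1 and the beta subunit Atp5b, and these genes alone took 24.8% to 28.0% of all member counts in a library. Atp5b, where ATP is formed, stood at 1688 and 1297 CPM with saline and at 1627 and 1737 CPM with RTX (log2 0.17, -0.40 to 0.75). Atp5a1 stood at 922 and 733 CPM and at 781 and 901 CPM (log2 0.02, -0.52 to 0.57). The groups overlapped in both. Per length, Atp5b was the highest of all members at 375 CPM per kb, followed by Cox6a1, Cox8a and Atp5a1, the last at 266 CPM per kb. This order depends in part on annotated exon lengths, 4237 bases for Atp5b and 3135 for Atp5a1 beside 702 for Cox6a1 and 545 for Cox8a. Over the 4 libraries Atp5b ran from 306 to 410 CPM per kb, Cox6a1 from 278 to 335, Cox8a from 241 to 301 and Atp5a1 from 234 to 294. Within every library Atp5b was above Cox6a1 and Cox6a1 above Cox8a, although the ranges overlapped. Cox8a and Atp5a1 could not be ordered, since Atp5a1 was the higher in stressed 2 and the lower in the other libraries.

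Atp5d, the delta subunit of the central stalk, stood at 274 and 208 CPM with saline and at 196 and 206 CPM with RTX (log2 -0.26, -0.76 to 0.24). The stressed libraries were the lower, but by less than the distance between the controls. The rotating c ring is made from 3 genes that encode the same mature protein. Atp5g3 stood at 276 and 207 CPM and at 265 and 255 CPM, and Atp5g1 at 62.6 and 49.6 CPM and at 57.2 and 60.7 CPM. Atp5g2 stood at 9.75 and 8.73 CPM and at 10.4 and 8.73 CPM. The fitted log2 differences of the 3 genes lay between 0.05 and 0.11. Atp5g3 carried most of the ring's message, at 115 CPM per kb beside 11.7 for Atp5g1 and 5.62 for Atp5g2. The size of this gap depends in part on the annotated exon length, 2181 bases for Atp5g3 and 4912 for Atp5g1. The low value of Atp5g2 is uncertain, since 38.3% of its 50-base words occur in transcripts of other genes.

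Atp5s, a coupling factor associated with the synthase, had the lowest difference of complex V. It stood at 27.3 and 19.1 CPM with saline and at 15.0 and 13.5 CPM with RTX. Both stressed libraries were the lower, with a log2 difference of -0.70 (SE 0.30, -1.43 to 0.03) that did not pass the test. Atp5k, subunit e of the membrane part, stood at 36.9 and 27.3 CPM and at 26.8 and 29.0 CPM (log2 -0.20, -0.82 to 0.43). Atp5l, subunit g, had a mean of 4.07 CPM, which is 7.96 CPM per kb. Its value says little about the gene, since 84.8% of its 50-base words also occur in other transcripts, among them 12 pseudogenes, and reads were counted only above a mapping quality of 30.

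**Figure D3:**
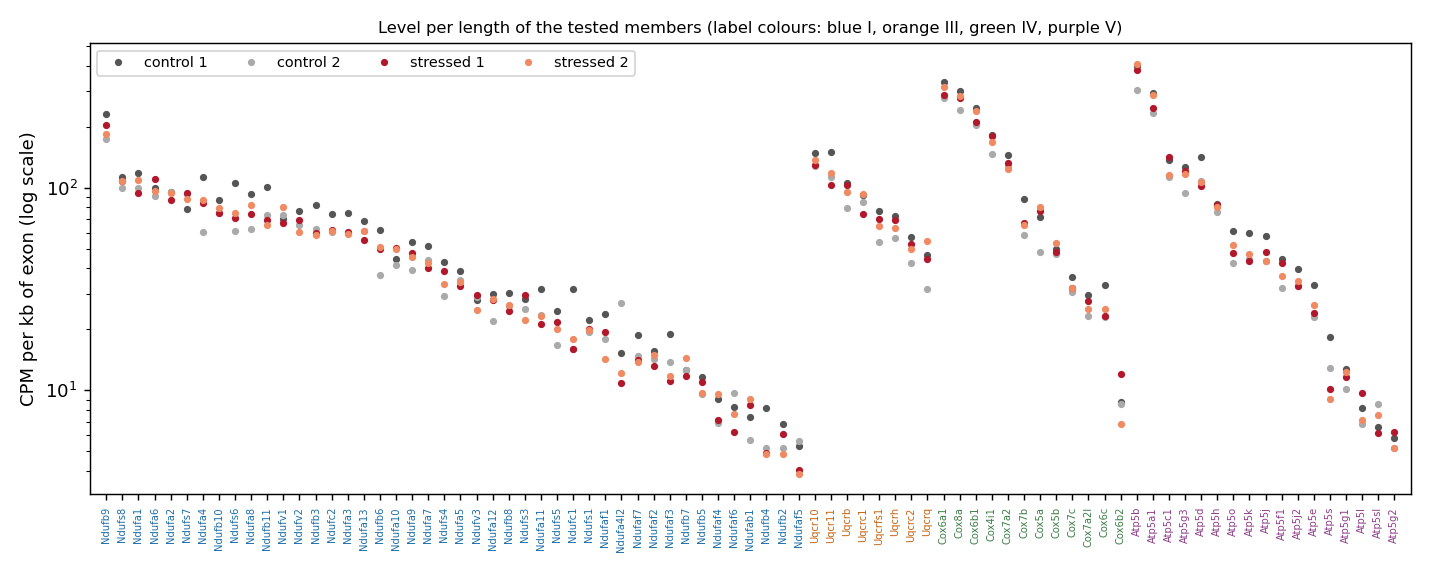
Level per length (CPM per kb of exon, log axis) of the tested genes, with 1 of complex I not drawn, in each of the 4 libraries, ordered within complexes I, III, IV and V. Atp5b at 375 CPM per kb is the highest, and the dots of a gene's 4 libraries lie close together beside the spread between genes.

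Counted over all tested members, both stressed libraries were above both controls in 3 genes, Cox5a, Ndufab1 and Ndufa10, where the background over all tested genes was 21.8%. Both were below both controls in 15 genes, where the background was 22.9%. The 15 were Ndufa2, Ndufa4l2, Ndufa5, Ndufa7, Ndufa11, Ndufa13, Ndufb3, Ndufb4, Ndufb11, Ndufaf3, Ndufaf5, Ndufaf6, Ndufaf7, Atp5d and Atp5s. They made up 13 of the 45 tested complex I members (28.9%), beside the 22.9% of all tested genes. In complex V they were 2 of 17 (11.8%), and in complexes III and IV they were 0 of 8 and 0 of 12. Whether the complexes differ in this respect was not tested.

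The subunits made from mitochondrial DNA did not follow the nuclear ones. The 13 mitochondrially encoded respiratory mRNAs summed to 8999 and 20749 CPM in controls 1 and 2 and to 4780 and 4091 CPM in stressed 1 and 2. Both stressed libraries were the lower, and control 2, the lowest library for the nuclear members, was the highest here. Keratinocyte marker sums were also lower in the stressed libraries and melanocyte marker sums higher. The part of these marker sums in the mitochondrial difference was not tested. The mitochondrial sum was 0.878 and 2.53 times the nuclear sum in the controls and 0.524 and 0.435 times in the stressed libraries. All 8 tested mRNAs had a fitted difference below 0, with a median log2 of -1.70. DESeq2 called 7 of the 8 lower, while edgeR called 0, with a smallest adjusted p of 0.137 and all 8 at an unadjusted p under 0.05. Without the low-count filter edgeR called 7 lower. Without control 1 the median was -2.18 and edgeR called 7 lower, and without control 2 it was -0.95 over 7 tested mRNAs, of which edgeR called 5. Without stressed 1 or stressed 2 edgeR called 0, and DESeq2 called 5 and 2 lower. mt-Nd1, a complex I subunit, stood at 1558 and 3310 CPM and at 586 and 561 CPM (log2 -2.09, -3.01 to -1.16). mt-Co1, the catalytic subunit of complex IV, stood at 2230 and 4556 CPM and at 1030 and 822 CPM (log2 -1.87, -2.80 to -0.95). In both genes each stressed library was below each control. The same held for mt-Nd2 and mt-Nd6, also of complex I, with log2 differences of -1.54 and -1.68. The files list mt-Co2, mt-Co3, mt-Atp6 and mt-Atp8 at 0 in all 4 libraries, although every respiring cell uses them, so the sum covers only part of the mitochondrial messages.

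**Figure D4:**
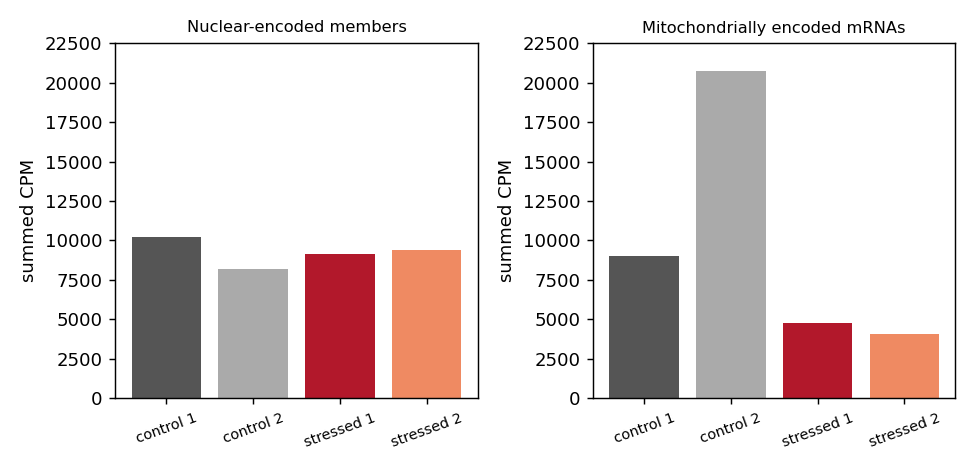
Summed CPM per library of the 88 nuclear-encoded genes (left) and of the 13 mitochondrially encoded mRNAs (right), on the same axis from 0; each bar is a library. The nuclear sums lie between 8188 and 10250 CPM, while the mitochondrial sums run from 4091 CPM in stressed 2 to 20749 CPM in control 2.

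Other nuclear genes of the pathway were also mostly not called. Over complex II, the electron carriers and the assembly factors outside the name rule, 63 genes were tested, with 28 above 0, 35 below and a median of -0.03. Of these, edgeR called 0 and DESeq2 called 1, and 1 had an unadjusted edgeR p under 0.05. Over all tested genes, DESeq2 called 4.4%, and 12.8% had an unadjusted edgeR p under 0.05. The 1 gene of the 63 was Acad9, a dehydrogenase of fatty acid oxidation that also assembles complex I. Acad9 stood at 213 and 150 CPM with saline and at 92.7 and 108 CPM with RTX. Both stressed libraries were the lower, with a log2 difference of -0.85 (-1.41 to -0.30), an adjusted p of 0.0351 by DESeq2 and of 0.234 by edgeR. The log2 difference was -0.57 without control 1, -0.74 without stressed 1 and -0.96 without stressed 2, and DESeq2 did not call it there (adjusted p 0.368, 0.764 and 0.644). Without control 2 it was -1.08 and both tools called it (adjusted p 0.0199 by edgeR and 0.00193 by DESeq2), and edgeR also called it without the low-count filter (adjusted p 0.0237). Complex II, with 8 tested genes, had 5 above 0 and 3 below and a median of 0.02. Cycs, cytochrome c, stood at 31.2 and 23.6 CPM and at 36.0 and 35.8 CPM (log2 0.39, adjusted p 0.578 by edgeR).

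Among 13 tested regulators of mitochondrial biogenesis, 6 were above 0 and 7 below, with a median of -0.13, and neither edgeR nor DESeq2 called any. Ppargc1a stood at 19.3 and 36.9 CPM with saline and at 49.1 and 50.6 CPM with RTX, and both stressed libraries were the higher. Its log2 difference was 0.82 (0.02 to 1.63), with an adjusted p of 0.38 by edgeR and 0.264 by DESeq2. Pprc1, a relative of Ppargc1a, stood at 75.6 and 72.4 CPM and at 87.2 and 148 CPM (log2 0.67, 0.01 to 1.32). The lowest difference of the list was that of Ppara, a nuclear receptor of fatty acid oxidation, at 11.4 and 8.98 CPM and at 4.88 and 7.64 CPM (log2 -0.70, -1.71 to 0.31). Of the factors whose letters were searched in the promoters, none was called. Nrf1 stood at 84.0 and 97.8 CPM and at 76.4 and 83.7 CPM (log2 -0.18, -0.62 to 0.25), and Yy1 at 17.6 and 12.5 CPM and at 13.8 and 12.2 CPM (log2 -0.21, -0.98 to 0.57). Gabpa stood at 89.99 and 87.7 CPM and at 109 and 108 CPM (log2 0.29, -0.11 to 0.69), and Esrra, the estrogen-related receptor alpha, at 16.6 and 14.6 CPM and at 14.1 and 14.5 CPM (log2 -0.13, -0.81 to 0.56). In both of these genes the stressed libraries stood outside the range of the controls. Tfam, which packages and transcribes mitochondrial DNA, stood at 45.3 and 43.2 CPM and at 33.6 and 47.3 CPM (log2 -0.13, -0.72 to 0.46).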

How the data were processed

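RNA-seq of 4 libraries of sorted mouse melanocyte stem cells was analysed. The deposited values are raw read counts; per the file headers, featureCounts 1.6.1 produced them (exons summed by gene name, minimum mapping quality 30, no strand option). The submitters' processing notes also name STAR 2.5.3, Trim Galore 0.4.1 and DESeq2 1.22.2, with build mm10. Without strand, reads of overlapping genes on opposite strands cannot be told apart, and genes with near-identical copies can lose reads. The file headers of stressed 1 and 2 carry the numbers 2 and 3.

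Counts were fitted over all genes with edgeR 4.0.16 in R 4.3.3 (quasi-likelihood, two-sided, TMM scaling, filterByExpr with a minimum count of 10, Benjamini-Hochberg adjustment over 13348 genes). DESeq2 1.42.0 and limma 3.58.1 were alternatives. The scripts were tested on simulated data. Libraries of a group differed beyond sampling noise (chi-square per degree of freedom 53.99 in the controls, 17.99 in the stressed group). Coordinates are mm10, the same assembly as GRCm38. Shared 50-base words were counted against GENCODE transcripts of that build. Named genes were those with an unadjusted p under 0.05, the 3 highest and 3 lowest differences per complex among genes of at least 10 CPM, fixed isoform sets and catalytic subunits, and the 2 highest levels per length per complex. Related genes were named by the same p or a DESeq2 call, at most 4 per list by smallest p, beside Ppargc1a, Nrf1, Tfam and Cycs. Other members, and Yy1, Gabpa, Esrra and Ppara, were named after their values were seen. The members and lists were chosen with earlier results of these data known. 1 complex I gene that the naming rule covers is not reported here by itself; the counts, sums and medians include it.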

Additional observations from a re-analysis of the deposited data

How the results depend on the processing

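Across upper-quartile scaling, DESeq2 size factors, a filter of 5 CPM, testing without a low-count filter, DESeq2, limma-voom, robust fitting, the replicate block and leaving out each library, 0 members were called. The number of all genes called moved from 0 to 760 without the low-count filter, to 587 with DESeq2, and to between 0 and 800 when a library was left out, by edgeR or DESeq2. It was 628 without control 1 and 739 without control 2 by edgeR. Leaving out a library, the median log2 difference ran from -0.1767 to 0.1043 over all members, from -0.2373 to 0.0467 in complex I, from -0.1445 to 0.2593 in complex III, from -0.1423 to 0.1576 in complex IV and from -0.1293 to 0.1462 in complex V. A fit with 1 library in a group assumes that it varies like the other group's. Of 35 tested named members, the sign turned in 11 without control 1 and 12 without control 2, in 5 to 6 without a stressed library, and in at most 2 under other settings, always among genes not called. The replicate block gave a median of -0.05 and 0 calls. The labels do not say whether a replicate number ties libraries of the groups together. The differences between replicates 1 and 2 correlated at 0.17 between the groups, which cannot settle whether libraries were paired. With 2 libraries a group, edgeR called 0 of 13348 genes at any size of difference in the main fit. What set that number was not tested.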

Other observations

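The tricarboxylic acid cycle, which feeds NADH and succinate to the respiratory complexes, was measured through 14 genes. Of these, 10 had a fitted difference above 0 and 4 below, with a median log2 of 0.15 beside -0.01 over all tested genes, and neither edgeR nor DESeq2 called any at an adjusted p of 0.05. The largest difference was that of Ogdh, the E1 subunit of the oxoglutarate dehydrogenase complex. Ogdh stood at 508 and 556 CPM with saline and at 702 and 883 CPM with RTX, so each stressed library was above each control. Its log2 difference was 0.57 on the fitted scale, with an unadjusted p of 0.0357 and an adjusted p of 0.345 by edgeR and 0.103 by DESeq2.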
